A study of Saccharomyces cerevisiae with 27 samples.

Results

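The 10 genes described here make up the core of glucose repression in the budding yeast Saccharomyces cerevisiae. They are SNF1, SNF4, SIP2 and GAL83, which encode the SNF1 protein kinase complex, REG1, a regulatory subunit of the phosphatase that opposes it, the repressors MIG1 and MIG2, and the glucose-phosphorylating enzymes HXK1, HXK2 and GLK1. They were chosen by name, with earlier results of these data known, and matched to the systematic name of each spot. All 10 had a spot of their own among the 6388 systematic names on the arrays, and 9 were among the 5865 genes that could be tested. SNF4 was measured on too few arrays of the other ages and was fitted at 8 generations alone.

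The study used 27 spotted arrays of wild-type cells of the W303 laboratory strain, each read in 2 colours. Cells of 1, 8, 12 and 18-20 generations were on 7, 6, 7 and 7 arrays in that order, where generations count the divisions a mother cell has been through. The reference on every array was RNA of 1-generation cells, matched to the aged sample in its conditions, so both channels held young cells on the 1-generation arrays. Per the labels, cells were sorted with magnetic beads and held in log phase, and the RNA was amplified and coupled to Cy5 or Cy3, with the dyes inverted on 11 arrays. The bead sort enriches mother cells and the labels give no purity. Nor do they tell whether replicate arrays stem from different cultures, so p-values measure only the spread between arrays, which may be technical. Every value below is log2(aged/young) unless said otherwise, and a change of 1 on this scale is a doubling.

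The SNF1 complex is the yeast form of AMP-activated protein kinase and is active when glucose is scarce. It then phosphorylates Mig1, which leaves the nucleus, and genes for the use of other carbon sources are released from repression. With glucose abundant, Reg1 and the phosphatase Glc7 keep the kinase off, Mig1 and Mig2 repress their targets, and Hxk2, the main hexokinase of cells on glucose, also takes part in the repression. Changes to SIP2, SNF4 and HXK2 are known to alter the replicative lifespan of this yeast.

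Some arrays stood apart from the rest. The direction of 8-generation array 1 was not settled, because its log ratios ran against those of arrays 2, 3 and 4 over all genes (r between -0.66 and -0.58), and values at this age are also given with its sign turned. At 1 generation, where both channels were young cells, array 2 was the only array with inverted dyes. It ran against array 1 (r = -0.67) and arrays 3 to 6 (r between -0.381 and -0.209), but not against array 7 (r = 0.088). Whether this followed from the dye was not tested. A set of 124 spots was detected mostly on the 6 arrays of 8 generations and on 18-20-generation array 7, and seldom on the other 20 arrays, the SNF4 spot among them. At 18-20 generations arrays 1 to 4 were more like each other (r between 0.931 and 0.965) than like arrays 5 to 7 (r up to 0.73). At 12 generations arrays 2 and 3 were more like each other (r = 0.804) than like the remaining arrays (r between 0.226 and 0.447). Those remaining arrays were at r between 0.555 and 0.921 with each other.

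HXK1 rose most of the 9 genes tested, 3.01-fold at 12 generations and 7.49-fold at 18-20 generations. GLK1 did not pass the threshold at 12 generations and rose 2.94-fold at 18-20 generations. SIP2 and MIG2 rose at both of these ages, and REG1 rose at 18-20 generations. REG1 and HXK2 also passed as rises at 12 generations, but lost the call in 12 and 6 of 43 alternative fits. MIG1 passed at both ages, but was above 0 on 5 of 7 arrays at 12 and 4 of 7 at 18-20 generations. Its calls were lost in 10 and 8 of 43 alternative fits. GAL83 was the gene that fell, and SNF1 did not pass the threshold at any age.

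At 1 generation and at 8 generations 0 of the 9 genes passed the threshold, an adjusted p below 0.05 in limma, and 0% of the 5865 genes tested did so at either age. At an unadjusted p below 0.05 there were 13 genes of 5865 at 1 generation, with 0 of the 9, and 748 at 8 generations, with 1 of the 9, SNF1. The 13 are fewer than the share of 0.05 that chance alone would give. The fit used 1 spread per gene for all ages, and the median SD was 0.151 at 1 generation against 0.445, 0.425 and 0.4 at the older ages. Standard errors and p-values at 1 generation, and for differences from it, may therefore be too large. With array 1 turned, 0 of the 9 passed at 8 generations, where 322 genes rose and 210 fell. At 12 generations 6 of the 9 rose and 1 fell, against 44.8% of all genes tested that changed, 23.3% that rose and 21.5% that fell. At 18-20 generations 6 rose and 1 fell, against 64.2% of all genes that changed, 32.9% that rose and 31.2% that fell. The median log2 ratio of the 9 genes was 0.48 at 12 and 1.05 at 18-20 generations, and that of all genes tested was 0.02 and 0.01. Without regard to direction the medians were 0.51 and 1.05 for the 9 genes, and 0.33 and 0.54 for all genes. The slope over generations, which takes 18-20 as 19, passed for 7 of the 9 (6 up, 1 down) and for 54.6% of all genes. For 12 minus 1 generations 4 of the 9 rose and 1 fell, and of all genes 835 rose and 766 fell. REG1 and MIG1 did not pass there (adjusted p = 0.272 and 0.198). For 18-20 minus 1 generations 6 rose and 0 fell, and of all genes 1551 rose and 1483 fell. MIG1 and GAL83 did not pass (adjusted p = 0.124 and 0.0509), and HXK2 passed (log2 0.58, adjusted p = 0.0292).

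**Figure D1:**
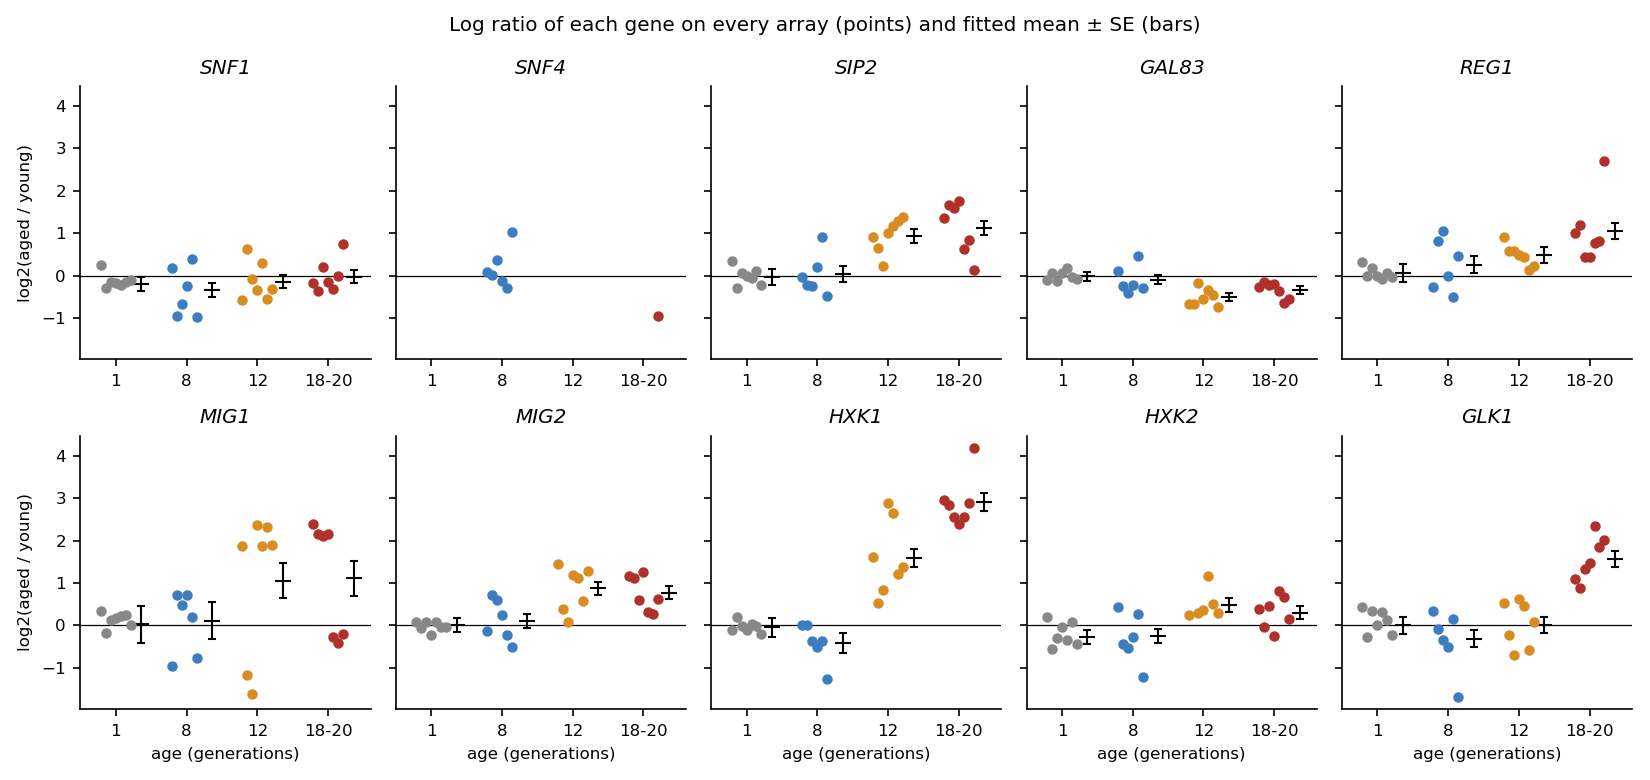
Each panel plots 1 gene, with age in generations on the x axis and log2(aged/young) on the y axis. Points are single arrays, and the black bar beside each group is the fitted mean with its standard error. HXK1 lies between 2.39 and 4.18 at 18-20 generations, MIG1 splits into high and low arrays at the 2 oldest ages, and SNF4 has points on 7 arrays alone.

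At 8 generations the arrays scattered around 0 for most of the genes. SIP2 lay between -0.48 and 0.91 (median -0.13), GAL83 between -0.41 and 0.46 (median -0.23), REG1 between -0.51 and 1.05 (median 0.23) and MIG2 between -0.50 and 0.72 (median 0.06). The sugar kinase genes were all at their lowest on array 6, where HXK1 was -1.27, HXK2 -1.22 and GLK1 -1.68, and the other 5 arrays of HXK2 lay between -0.53 and 0.44. Fitted values at this age were -0.26 ± 0.166 for HXK2 (adjusted p = 0.547) and -0.31 ± 0.207 for GLK1 (adjusted p = 0.56). With array 1 turned they were -0.44 ± 0.147 (adjusted p = 0.0594) and -0.47 ± 0.192 (adjusted p = 0.125), and REG1 moved from 0.26 to 0.35 and MIG1 from 0.12 to 0.39, none past the threshold.

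SNF1, the catalytic subunit of the kinase, varied between arrays more than between ages. At 1 generation its log2 ratio ran from -0.30 to 0.24 (median -0.15) over 7 arrays, and at 8 generations from -0.98 to 0.39 (median -0.47) over 6. At 12 generations it ran from -0.58 to 0.62 (median -0.32), and at 18-20 generations from -0.37 to 0.75 (median -0.15). Each of these ranges holds 0 and overlaps the others. The fitted log2 change was -0.34 ± 0.167 (SE) at 8 generations (adjusted p = 0.386), -0.15 ± 0.153 at 12 (adjusted p = 0.45) and -0.03 ± 0.153 at 18-20 (adjusted p = 0.89). With 8-generation array 1 turned, the value at that age was -0.44 ± 0.154 (adjusted p = 0.0667). With array weights it passed there, at -0.46 (adjusted p = 0.0237), the exception among the alternatives for SNF1.

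SNF4, the gamma subunit, which binds adenine nucleotides and holds the kinase active, was measured on 7 arrays. Its spot was marked as not found on the other 20, with a median signal of 107 in the aged channel and 123 in the young channel at 1 generation, where that of 8-generation arrays was 1872.5 and 1221. On the 8-generation arrays the log2 ratios were 0.09, 0.02, 0.37, -0.13, -0.29 and 1.02 in order, and on 18-20-generation array 7 the ratio was -0.96. On 8-generation array 6, which gave 1.02, 0% of the pixels of the aged channel exceeded the background plus 2 SD, although its median signal was 2146 against a local background of 132. The 8-generation values lie on both sides of 0, with array 1 turned as well. With 8 generations fitted alone in limma, a test added after seeing the data, SNF4 was at 0.08 ± 0.178 (adjusted p = 0.957), and with array 1 turned at 0.15 ± 0.147 (adjusted p = 0.611). Older ages, with 1 array at 18-20 generations and none at 12, were not tested.

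SIP2 and GAL83 encode alternative beta subunits, which tether the catalytic subunit to the gamma subunit and steer the complex to different places in the cell. SIP2 was between 0.23 and 1.39 (median 1.00) at 12 generations and between 0.13 and 1.76 (median 1.35) at 18-20 generations, above 0 on 7 of 7 arrays at each age. At 1 generation it lay between -0.29 and 0.34, and 6 of 7 arrays of either older age were above that range. The 1-generation arrays varied little, with a median SD over all genes of 0.151, against 0.425 at 12 and 0.4 at 18-20 generations. How many of all genes lay outside their range at 1 generation or at another age was not counted, here or for the genes below. SIP2 rose by 0.94 ± 0.169 at 12 generations (1.92-fold, adjusted p = 5.3e-05) and by 1.13 ± 0.169 at 18-20 generations (2.19-fold, adjusted p = 1.45e-06). At 18-20 generations arrays 1 to 4 gave 1.35, 1.66, 1.59 and 1.76, and arrays 5 to 7 gave 0.62, 0.85 and 0.13, so the alike arrays hold the highest values. With alike arrays averaged the change at that age was 0.75 (adjusted p = 0.0118), and with the array set as a block it was 0.67 (adjusted p = 0.00945). With that block the change at 12 generations was 0.30 (adjusted p = 0.405).

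GAL83 moved the other way. It was between -0.73 and -0.18 (median -0.56) at 12 generations and between -0.65 and -0.15 (median -0.28) at 18-20 generations. All 14 of these arrays were below 0 and below each of the 1-generation arrays, which lay between -0.13 and 0.18. GAL83 fell to 70.2% of the young level at 12 generations (log2 -0.51 ± 0.098, adjusted p = 1.22e-04) and to 78.8% at 18-20 generations (log2 -0.34 ± 0.098, adjusted p = 0.00324). Against the 1-generation arrays the change at 12 generations was -0.5 ± 0.142 (adjusted p = 0.00989). At 18-20 generations it was -0.33 ± 0.142 (adjusted p = 0.0509), not past the threshold. The difference of 18-20 and 12 generations was 0.17 ± 0.139 (adjusted p = 0.429). Its spread was small, with an SD of 0.201 at 12 generations that was below that of all but 6.56% of the genes tested. With arrays scaled to the same spread the change at 18-20 generations was -0.18 (adjusted p = 0.16).

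The 2 beta subunit genes were also set against each other within each array. The log2 ratio of SIP2 was above that of GAL83 on 7 of 7 arrays at 12 generations (mean difference 1.46 ± 0.525 SD) and on 7 of 7 at 18-20 generations (1.48 ± 0.48 SD). Both gave p = 0.0156 in an exact two-sided sign-flip permutation test, the smallest that 7 arrays allow, and an adjusted p of 0.05 over the 16 such tests made, which is at the threshold and not below it. At 8 generations the difference was 0.12 ± 0.276 SD (n = 6, exact p = 0.344), or 0.17 with array 1 turned, and at 1 generation it was 0.01 ± 0.273 SD (n = 7, exact p = 0.938).

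REG1 directs the phosphatase Glc7 to the kinase complex. Its log2 ratio was between 0.13 and 0.91 (median 0.49) at 12 generations and between 0.43 and 2.70 (median 0.81) at 18-20 generations. All 7 arrays at 18-20 generations were above the 1-generation range of -0.08 to 0.32, and array 7 stood far above the other 6, of which the highest was 1.20. REG1 rose by 0.48 ± 0.189 at 12 generations (1.39-fold, adjusted p = 0.0405) and by 1.05 ± 0.189 at 18-20 generations (2.08-fold, adjusted p = 2.12e-05). The call at 12 generations was lost in 12 of the 43 alternatives (adjusted p up to 0.113), among them those without arrays 1, 2, 3, 4 or 5 of that age. With the array set as a block, a fit that array 7 alone links to the older ages, REG1 was at 1.49 and 1.78. On 20 of 27 arrays at least 50% of the pixels of the spot exceeded the background plus 2 SD in both channels.

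MIG1, the zinc finger repressor that SNF1 acts on, divided the arrays of both older ages. At 12 generations arrays 1, 4, 5, 6 and 7 gave 1.88, 2.37, 1.88, 2.32 and 1.89, and arrays 2 and 3 gave -1.16 and -1.61. At 18-20 generations arrays 1 to 4 gave 2.39, 2.15, 2.11 and 2.15, and arrays 5 to 7 gave -0.28, -0.42 and -0.19. No array of either age lay between -0.19 and 1.88, so no single array is near the fitted mean. At 1 generation all 7 arrays lay between -0.18 and 0.33, and at 8 generations the 6 arrays lay between -0.96 and 0.73. The SD of MIG1 was 1.703 at 12 generations, where 8 of the genes tested had a larger one, and 1.338 at 18-20 generations, where 79 did. The median SD of all genes was 0.425 and 0.4.

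The fitted change of MIG1 was 1.06 ± 0.405 at 12 generations (2.08-fold, adjusted p = 0.0343, above 0 on 5 of 7 arrays) and 1.11 ± 0.405 at 18-20 generations (2.16-fold, adjusted p = 0.0183, above 0 on 4 of 7). With alike arrays averaged it was 0.61 (adjusted p = 0.301) and 0.47 (adjusted p = 0.514). The call was also lost without any 1 of 12-generation arrays 1, 4, 5, 6 or 7 (0.87 to 0.95), and without any 1 of 18-20-generation arrays 1 to 4 (0.89 to 0.97). With arrays scaled to the same spread it was 0.63 (adjusted p = 0.106) and 0.50 (adjusted p = 0.195), and in the block fit by array set 0.17 (adjusted p = 0.878) and 0.47 (adjusted p = 0.494). With array weights MIG1 was higher, at 1.97 at 18-20 generations (adjusted p = 3.07e-09). The slope over generations was 0.07 ± 0.031 (adjusted p = 0.063), and it passed in 8 of 42 alternatives, with array weights at 0.10 (adjusted p = 1.55e-06). The spot met the pixel criterion in both channels on 27 of 27 arrays, and it held no saturated pixels.

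MIG2, a second repressor of the same targets, rose with less spread. It was between 0.07 and 1.44 (median 1.12) at 12 generations and between 0.28 and 1.25 (median 0.63) at 18-20 generations, above 0 on all 14 arrays. At 18-20 generations all 7 were above the 1-generation range of -0.22 to 0.08. MIG2 rose by 0.87 ± 0.156 at 12 generations (1.83-fold, adjusted p = 4.9e-05) and by 0.77 ± 0.156 at 18-20 generations (1.71-fold, adjusted p = 9.4e-05). The median signal of the spot was above its local background in both channels on 27 of 27 arrays. At least 50% of its pixels exceeded the background plus 2 SD in both channels on 12 of 27 arrays and on 0 of the 7 at 1 generation. With spots below this pixel criterion left out MIG2 was not tested, since too few arrays remained.

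On the arrays where MIG1 was low, MIG2 and SIP2 were also at the low end. On 12-generation arrays 2 and 3 MIG2 was 0.38 and 0.07 and SIP2 was 0.65 and 0.23, the lowest of their age for both genes. On 18-20-generation arrays 5 to 7 MIG2 was 0.31, 0.28 and 0.63, where arrays 1 to 4 gave 0.60 to 1.25. Across the 27 arrays MIG1 correlated with MIG2 at r = 0.787 and with SIP2 at r = 0.731. These points share arrays and ages and are given as a description. The same arrays, 2 and 3 at 12 generations and 5 to 7 at 18-20 generations, also stood apart from the rest of their age over all genes. Whether the shared low values are particular to these genes was not tested. SIP2 and MIG2 are next to each other on their chromosome in the RefSeq gene table. Within an array the log2 ratios of MIG1 and MIG2 differed by 0.21 ± 1.316 SD at 12 generations (exact p = 0.656, n = 7) and by 0.36 ± 1.013 SD at 18-20 generations (exact p = 0.359, n = 7), with both signs present at each age.

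**Figure D2:**
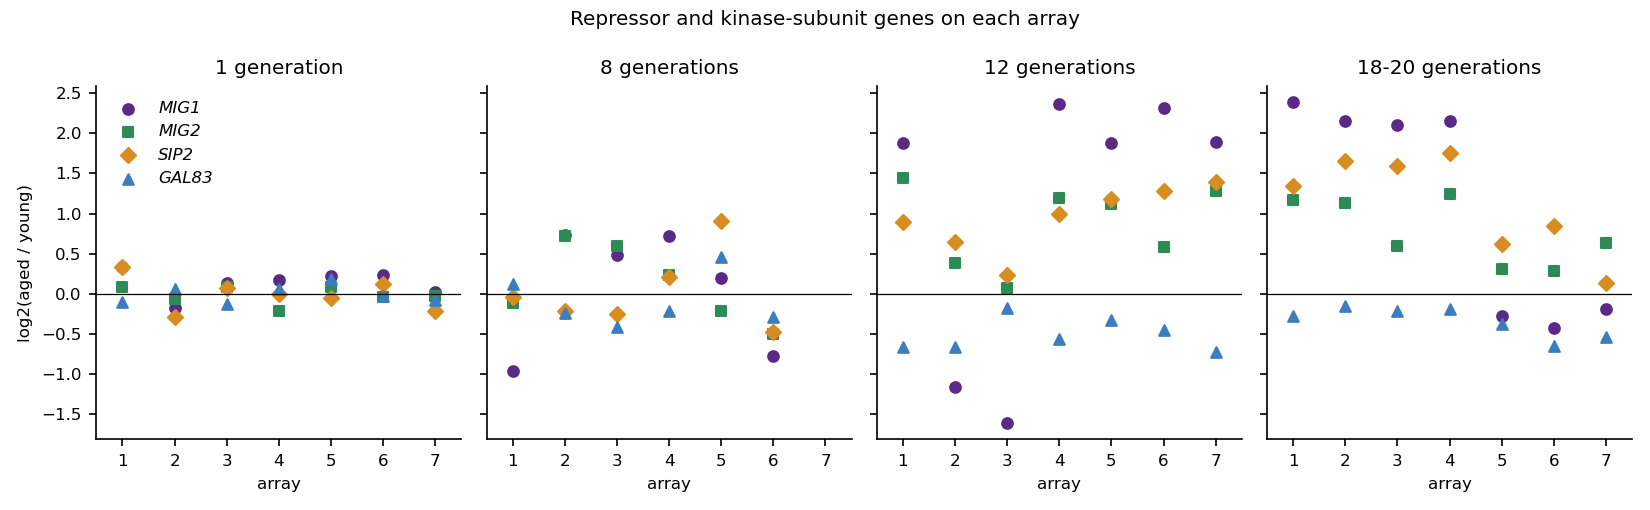
MIG1, MIG2, SIP2 and GAL83 are shown on every array, 1 panel for each age, with the array number on the x axis and log2(aged/young) on the y axis. MIG1 is below 0 on arrays 2 and 3 at 12 generations and on arrays 5 to 7 at 18-20 generations and at or above 1.88 on the others, while GAL83 is below 0 throughout both panels.

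HXK1 encodes a hexokinase that is repressed on glucose. Its log2 ratio was between -0.19 and 0.21 (median -0.02) at 1 generation, and between -1.27 and 0.02 (median -0.37) at 8 generations. At 12 generations it was between 0.54 and 2.88 (median 1.38), and at 18-20 generations between 2.39 and 4.18 (median 2.83). All 14 arrays of the 2 older ages were above every array of the 2 younger ages. The share of all genes with such a separation was not counted, and 64.2% of all genes tested changed at 18-20 generations. Within 12 generations arrays 4 and 5 were the highest, at 2.88 and 2.66, and arrays 2 and 3 the lowest, at 0.54 and 0.84.

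HXK1 rose by 1.59 ± 0.214 at 12 generations (adjusted p = 1.18e-06) and by 2.91 ± 0.214 at 18-20 generations (adjusted p = 6.12e-12), where it was rank 16 of the 5865 genes tested by size of rise. At 8 generations the fitted value was -0.41 ± 0.234 (adjusted p = 0.479), or -0.42 with array 1 turned (adjusted p = 0.26). The difference of 18-20 and 12 generations was 1.32 ± 0.302 (adjusted p = 0.00322), and that of 12 and 8 generations was 1.99 ± 0.32 (adjusted p = 5.87e-05). With arrays scaled to the same spread the values were 1.48 at 18-20 generations (adjusted p = 1.83e-08) and 0.36 for the difference of 18-20 and 12 (adjusted p = 0.554). The spot held saturated pixels on 4 arrays, 3 of them at 18-20 generations, up to 35% of its pixels.

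GLK1, the glucokinase, is also repressed on glucose and does not use fructose. At 12 generations its 7 arrays lay between -0.69 and 0.63 (median 0.08), and arrays 1, 4 and 5, at 0.54, 0.63 and 0.46, lay above the 8-generation range of -1.68 to 0.34, which the other 4 arrays overlapped. At 18-20 generations they lay between 0.89 and 2.34 (median 1.48), above every array of the other ages, a separation whose share among all genes was not counted. The fitted change was 0.01 ± 0.189 at 12 generations (adjusted p = 0.961) and 1.56 ± 0.189 at 18-20 generations (adjusted p = 5.09e-08), and the difference of these ages was 1.54 ± 0.267 (adjusted p = 2.83e-04). With arrays scaled to the same spread GLK1 was 0.82 at 18-20 generations (adjusted p = 0.00107) and the difference was 0.85 (adjusted p = 0.184). The spot held saturated pixels on 9 arrays, 4 of them at 12 and 4 at 18-20 generations, up to 48% of its pixels.

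Of the 9 genes, 2 passed the test of 18-20 minus 12 generations, HXK1 and GLK1, against 19.7% of all genes tested. For 12 minus 8 generations 5 passed, against 26.4% of all genes. Of these SIP2 (0.90), MIG2 (0.77), HXK1 (1.99) and HXK2 (0.74) rose and GAL83 fell (log2 -0.42). The call of GAL83 was lost in 13 of 42 alternatives (adjusted p up to 0.252) and that of HXK2 in 7 of 42 (adjusted p up to 0.612). MIG2 lost its call in 3 of 41, SIP2 lost it in 1 and changed sign in 1 of 42, and HXK1 kept it in all 42.

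HXK2, the hexokinase of cells grown on glucose, changed less. Its log2 ratio was between 0.25 and 1.17 (median 0.33) on the 6 arrays of 12 generations that measured it, all above the 1-generation range of -0.56 to 0.19. At 18-20 generations it lay between -0.24 and 0.82 (median 0.39), with 5 of 7 arrays above 0. HXK2 rose by 0.48 ± 0.164 at 12 generations (1.39-fold, adjusted p = 0.0186), and the value at 18-20 generations was 0.30 ± 0.152 (1.23-fold, adjusted p = 0.0891). Without 12-generation array 5, which gave 1.17, the change at that age was 0.31 (adjusted p = 0.142), and with median centring it was 0.09 (adjusted p = 0.74). The difference of 18-20 and 12 generations was -0.18 ± 0.223 (adjusted p = 0.617).

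Within the same array the log2 ratio of HXK1 was above that of HXK2 by 2.59 ± 0.736 SD at 18-20 generations, on 7 of 7 arrays (exact p = 0.0156, adjusted p = 0.05). At 12 generations it was above by 1.29 ± 0.702 SD, on 6 of 6 arrays (exact p = 0.0312, the smallest that 6 arrays allow, adjusted p = 0.0833). At 8 generations the difference was -0.12 ± 0.394 SD (exact p = 0.438, n = 6), or 0.02 with array 1 turned, and at 1 generation it was 0.18 ± 0.358 SD (exact p = 0.281, n = 7).

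The log2 ratio of GLK1 was above that of HXK2 by 1.26 ± 0.455 SD at 18-20 generations, on 7 of 7 arrays (exact p = 0.0156, adjusted p = 0.05). At 12 generations the difference had the opposite sign, -0.40 ± 0.607 SD, with GLK1 the lower on 4 of 6 arrays (exact p = 0.219). A smaller difference was present between young samples, 0.31 ± 0.256 SD on 7 of 7 arrays of 1 generation (exact p = 0.0156, adjusted p = 0.05). Both channels held young cells there, so this p alone does not set a change with age apart from other differences between channels. The pair tests had no dye term, and 1 of these 7 arrays had inverted dyes. At 8 generations the difference was -0.06 ± 0.287 SD (exact p = 0.625, n = 6), or -0.03 with array 1 turned.

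**Figure D3:**
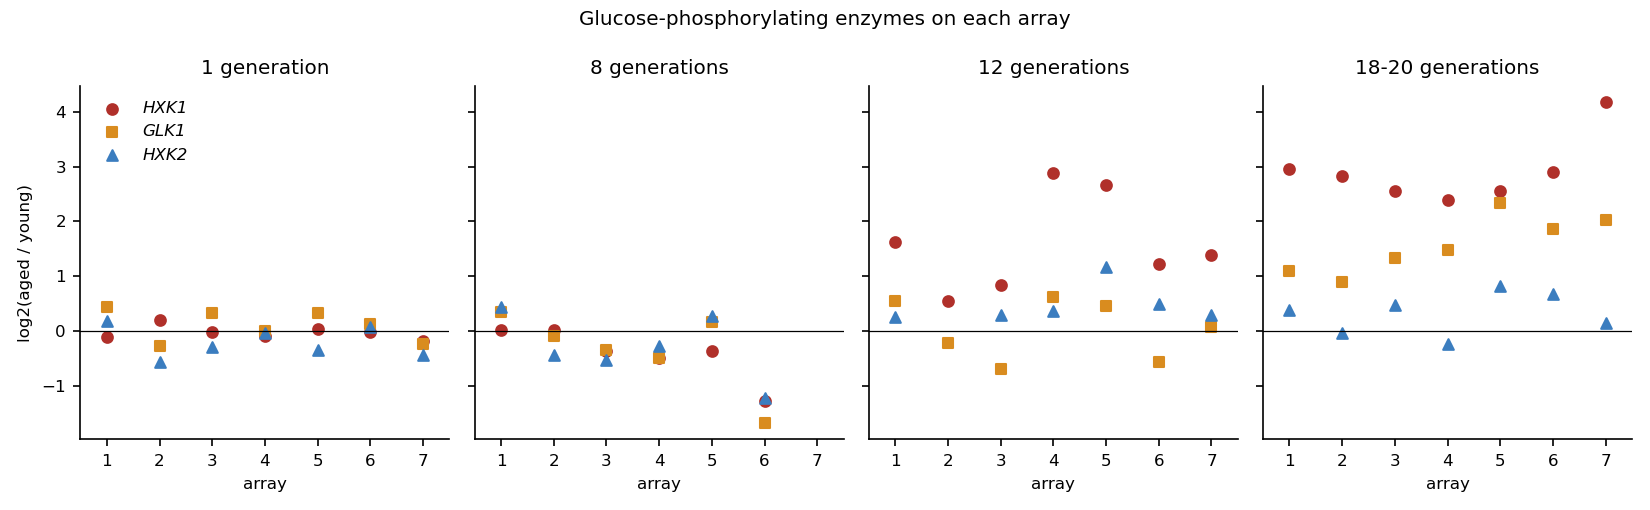
HXK1, GLK1 and HXK2 are plotted on every array, with the array number on the x axis and log2(aged/young) on the y axis, 1 panel for each age. HXK1 is above HXK2 on every array of the 2 oldest ages that measured both, while GLK1 is above HXK2 on all 7 arrays at 18-20 generations and mixed with it at 12.

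The genes with the pattern across arrays most like that of HXK1 were GLC3, the glycogen branching enzyme (r = 0.97), YSC84, an actin-binding protein (r = 0.966), and PRP5, an RNA helicase of splicing (r = 0.956), among 4888 genes measured on at least 24 arrays. For GAL83 they were SLC1, an acyltransferase of lipid synthesis (r = 0.76), OPT1, an oligopeptide transporter (r = 0.756), and FAA4, a fatty acyl-CoA synthetase (r = 0.753). All of these points share arrays and ages, and the correlations are a description with n = 27 arrays.

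Other genes of the pathway were taken from lists, whose counts stand beside 23.3% of all genes tested that rose and 21.5% that fell at 12 generations, and 32.9% and 31.2% at 18-20 generations. The lists were chosen with earlier results of these data known, and their counts are a description. Of 10 regulators of SNF1, all tested, 4 rose and 3 fell at 12 generations (median log2 ratio -0.02), and 4 rose and 2 fell at 18-20 generations (median 0.19). REG2, the paralog of REG1, rose most, by 2.13 ± 0.183 at 12 and 2.84 ± 0.183 at 18-20 generations (adjusted p = 5.95e-13). Of the SNF1-activating kinases on the list, ELM1 was at 1.01 ± 0.188 (adjusted p = 3.62e-05) and TOS3 at -0.91 ± 0.16 (adjusted p = 1.61e-05) at 18-20 generations. SAK1, also such a kinase on the list, was not among the 4 genes named here for the size of their change. STD1, which binds SNF1 and acts on glucose transporter genes, fell there (log2 -0.76 ± 0.144, adjusted p = 4.56e-05).

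Of 8 repressors and corepressors of glucose-regulated genes, 6 were tested, and 1 rose and 1 fell at 12 generations (median -0.14). At 18-20 generations 3 rose and 1 fell (median 0.34). MTH1, a corepressor of glucose transporter genes, was at 1.84 ± 0.194 (adjusted p = 4.26e-09) and NRG1, a repressor of glucose-repressed genes, at 1.17 ± 0.245 (adjusted p = 1.53e-04). RGT1, the repressor that works with MTH1, was at 0.52 ± 0.111 (adjusted p = 1.66e-04), and TUP1, the corepressor that MIG1 recruits, was at -0.59 ± 0.112 (adjusted p = 5.21e-05).

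Of 8 activators that SNF1 acts on, 6 were tested, and 4 rose and 0 fell at each of the 2 older ages (medians 0.67 and 1.12). At 18-20 generations CAT8, which switches on gluconeogenesis genes, was at 1.79 ± 0.252 (adjusted p = 6.02e-07), and ADR1, which switches on ethanol and fatty acid use, at 1.49 ± 0.138 (adjusted p = 4.03e-10). MSN4, a stress response factor, was at 1.38 ± 0.211 (adjusted p = 2.01e-06) and SIP4, a partner of the kinase complex, at 0.87 ± 0.178 (adjusted p = 1.31e-04).

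Genes that glucose represses rose in 14 of 17 tested cases at 12 generations (median 1.02) and in 15 of 17 at 18-20 generations (median 1.32), and 0 fell at either age. Of all genes tested, 1364 of 5865 rose at 12 and 1932 at 18-20 generations, with median log2 ratios of 0.02 and 0.01. At 18-20 generations CYB2, the mitochondrial lactate dehydrogenase, was at 4.07 ± 0.299 (16.8-fold, adjusted p = 5.63e-12), ADH2, which oxidises ethanol, at 2.80 ± 0.365 (adjusted p = 1.64e-07), and JEN1, the lactate transporter, at 2.56 ± 0.279 (adjusted p = 9.7e-09). REG2, at 2.84, is on this list as well. At 12 generations ADH2 was higher, at 3.70 ± 0.365 (12.9-fold, adjusted p = 9.55e-09). The median log2 ratio of this list lay above that of the 9 genes at both ages, and HXK1 lay above both medians.

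Of 7 further genes of sugar phosphorylation and the steps next to it, 3 rose and 0 fell at 12 generations (median 0.33), and 5 rose and 1 fell at 18-20 generations (median 1.78). XKS1, the xylulokinase, was at 2.13 ± 0.166 (adjusted p = 1.59e-11), and EMI2, the paralog of GLK1, at 2.00 ± 0.188 (adjusted p = 5.41e-10). PGM2, the main phosphoglucomutase, was at 1.88 ± 0.186 (adjusted p = 1.41e-09) and TPS1, which makes trehalose-6-phosphate, at 1.78 ± 0.175 (adjusted p = 1.22e-09). EMI2 and PGM2, at 0.60 and -0.32 at 12 generations, were like GLK1 in having the larger value at 18-20 generations.

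**Figure D4:**
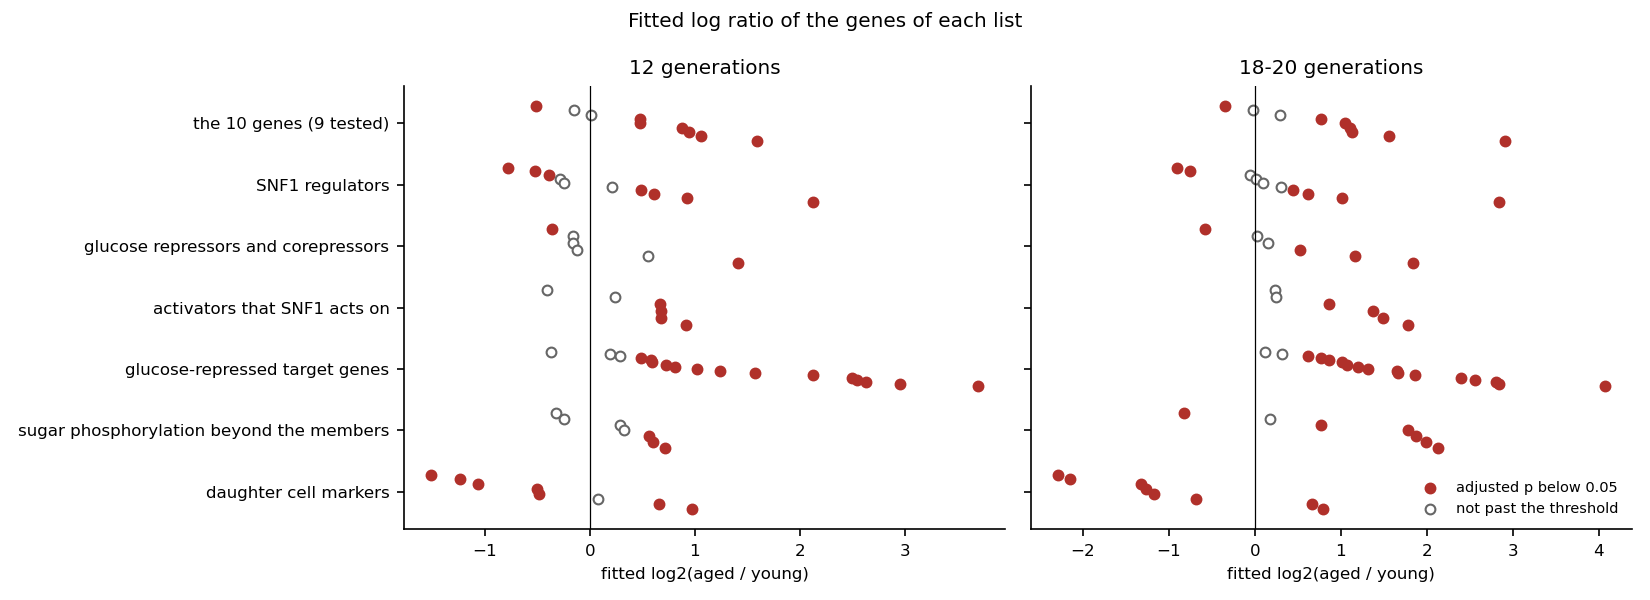
Fitted log2(aged/young) is on the x axis for every tested gene of the 10 and of 6 lists, 1 row for each list, with 12 generations in the left panel and 18-20 in the right. Filled points passed the threshold and open points did not, and the row of glucose-repressed target genes holds no filled point below 0.

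Markers of daughter cells moved with age as well. Of 8 such genes 5 fell and 2 rose at 12 generations, and 6 fell and 2 rose at 18-20 generations (medians -0.49 and -1.22). DSE2 (log2 -2.29 ± 0.179, adjusted p = 1.73e-11), DSE4 (-2.15 ± 0.118, adjusted p = 5.89e-14), SCW11 (-1.32 ± 0.135, adjusted p = 2.36e-09) and DSE1 (-1.26 ± 0.135, adjusted p = 5.39e-09) had the largest changes. The mean log2 ratio of all 8 markers on an array ran from -0.09 to 0.16 at 1 generation and from -0.19 to 0.29 at 8 generations. It ran from -0.42 to -0.34 at 12 generations and from -1.06 to -0.75 at 18-20 generations. The part of the share of daughter cells in the values of the 10 genes was not tested, and a change in the share of cells cannot be told apart from a change in RNA per cell in these samples.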

How the data were processed

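Total RNA of yeast cells was measured on 27 2-colour spotted arrays. The authors deposited 1 scanner file per array, with, per the file headers, the median intensity and median local background of each spot in Cy5 and Cy3, unnormalized, the percent of pixels above background plus 2 SD and saturated, and a score that marks spots set aside. Their deposited table of processed values, read here as log2 of aged over young after comparison with the scanner values, was used as an alternative, with its normalization unstated in the labels. Its columns for 8-generation arrays 1 and 3 match each other's scanner file.

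With R 4.3.3 and limma 3.58.1, background was corrected by normexp (offset 50), each array was normalized by loess (span 0.3), marked spots were dropped, and signs were turned by the dye of the aged sample. The description of 8-generation array 3 does not mention the dye inversion found in its title and channels, and the latter were followed. Spots of a gene were averaged, and genes measured on at least 3 arrays of every age were tested (5865). One linear model had age means and a dye effect, moderated by empirical Bayes, with each age tested against 0, two-sided, and Benjamini-Hochberg adjustment over all genes at 0.05. All ages shared the same estimate of each gene's spread. Pairs of genes were compared within arrays by exact sign-flip permutation tests, without a dye term and adjusted over 16. Spots were called above background where at least 50% of pixels exceeded it by 2 SD. Names came from RefSeq (assembly R64) for 5849 of 6388 systematic names. The number of arrays limits the precision, with a median standard error of 0.155 at each of the 2 oldest ages. The fit was checked on simulated data.

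The 10 genes and the lists were chosen with earlier results of these data known. The genes named beside the 10 are, of each list, up to 4 with the largest change at 18-20 generations among those past the threshold, and the 3 most correlated with HXK1 and with GAL83, the largest rise and fall. In the lists, MIG3, NRG2, RDS2, HAP4 and ICL1 were not tested. Alternatives covered background, normalization, scaling, the dye term, marked and dim spots, weights, the deposited table, array directions, blocks, alike arrays and leaving out each array. The fit without 8-generation arrays 1 and 3 and 18-20-generation array 7 was chosen after seeing the data.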

Additional observations from a re-analysis of the deposited data

Results flagged for a closer look

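Among the 37 groups formed by a gene and an age, 4 held an array far from the others, where chance alone would give about 1 in 20. SNF1 was at 0.24 on 1-generation array 1, and the next array was at -0.10. REG1 was at 2.70 on 18-20-generation array 7, with the next at 1.20, and HXK1 was at 4.18 on the same array, with the next at 2.95. That array belongs to the set with other spots detected. HXK2 was at 1.17 on 12-generation array 5, with the next at 0.50.

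Differences between ages passed in limma for 5 genes from 8 to 12 generations. They were 0.90 for SIP2 (adjusted p = 0.00868), -0.42 for GAL83 (adjusted p = 0.0353), 0.77 for MIG2 (adjusted p = 0.0149), 1.99 for HXK1 (adjusted p = 5.87e-05) and 0.74 for HXK2 (adjusted p = 0.0213). The calls of GAL83 and HXK2 were lost in 13 and 7 of 42 alternatives. From 12 to 18-20 generations the differences that passed were 1.32 for HXK1 (adjusted p = 0.00322) and 1.54 for GLK1 (adjusted p = 0.000283).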

How the results depend on the processing

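The count of members called was 7 of 9 at 18-20 generations, against 64.2% of all genes tested, and stayed within 1.5 times that in every alternative. At 12 generations the count was 7, and 2627 of all genes changed. It was 4 with median centring (1180 of all genes rose and 1258 fell) and with arrays scaled to the same spread (1055 and 975). It was also 4 with the array set as a block (1037 and 965) and with alike arrays averaged (1060 and 1001, of 5649). When single arrays were left out it ran from 4 to 7, with 4 reached without array 5 (1204 and 1125). Scaling shrinks the arrays of the oldest ages by its construction. It also gave 4 members with a slope instead of 7 (986 of all genes rose and 1083 fell, instead of 3202 changed). For 12 minus 8 generations it gave 2 instead of 5 (499 of all genes rose and 578 fell, instead of 1550 changed). For 18-20 minus 12 generations it gave 0 instead of 2, where 3 of all genes rose and 6 fell instead of 1156 changed. For 12 minus 8 generations the array set as a block gave 2 (499 of all genes rose and 509 fell). Alike arrays averaged gave 1 for this difference (508 and 587). The array set as a block gave 1 member called at 1 generation (REG1, log2 1.11), where 105 of all genes rose and 52 fell. The arrays of that age lay between -0.08 and 0.32 for REG1, so the fitted value is outside them. In this block fit the offset between the 2 sets rests on 18-20-generation array 7 alone, and it shifts the values of every age. The same block fit gave 1 at 8 generations (HXK1, log2 -1.19), where 143 of all genes rose and 194 fell. Array weights gave 1 at 8 generations (SNF1), where 404 of all genes rose and 351 fell. The array set as a block also turned the 12 minus 8 difference of SIP2 to -0.40 (adjusted p = 0.616). In the deposited table the adjusted exact p fell to 0.0417 for HXK1 minus HXK2 (2.66) and GLK1 minus HXK2 (1.19) at 18-20 generations, SIP2 minus GAL83 at 12 (1.51) and 18-20 generations (1.65), and, at 1 generation, GLK1 minus HXK2 (0.29) and MIG1 minus MIG2 (0.15). Of the list counts, rises of glucose-repressed genes at 12 generations ran from 8 to 15 (14 in the report), of SNF1 regulators at 18-20 generations from 2 to 7 (4), of activators at 12 generations from 2 to 5 (4) and of repressors at 12 generations from 1 to 3 (1). Beyond this property of the block fit, why these values moved was not tested.

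Deviations of same-numbered arrays from the mean of their age correlated weakly between ages (39 pairs, r from -0.277 to 0.226, median 0.015, 12 above 0.1). The arrays numbered 1 of 1, 12 and 18-20 generations were at r = 0.215, 0.19 and 0.226 with each other. These deviations were not corrected for the dye, so they cannot settle whether the numbers pair the samples. With the replicate block the counts were 6 at 12 generations (1322 of all genes rose and 1232 fell) and 7 at 18-20 generations (1899 and 1798). The call lost was that of REG1 (adjusted p = 0.0501), and GAL83 lost its call for 12 minus 8 generations (adjusted p = 0.0765). Without 8-generation arrays 1 and 3 and 18-20-generation array 7, chosen after seeing the data, 7 members were called at each of these 2 ages. Of 5586 genes tested in that fit 1417 rose and 1327 fell at 12 generations, and 1835 rose and 1728 fell at 18-20 generations. Differences between ages were not computed with each age fitted alone. Spots of MIG2 and REG1 met the pixel criterion in both channels on 12 and 20 of 27 arrays, SNF4 was found on 7 arrays, and saturated pixels limit HXK1, HXK2 and GLK1.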
